A study of Homo sapiens with 17 samples.

Results

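The genes described here encode the integrin and laminin chains, 38 genes of the 60199 in the deposited RNA table, chosen by symbol. They comprise 18 integrin alpha chains, 8 integrin beta chains and 12 laminin chains. The cells were neurons differentiated for 40 days from H9, a human embryonic stem cell line, at passage P40. The KO neurons came from UTX-/- derivatives of H9, the lines KO1 (3 RNA libraries) and KO2 (2 RNA libraries), and the control neurons from unedited H9, labelled Wild type (WT, 3 RNA libraries). UTX, encoded by KDM6A, is an enzyme that takes methyl groups off H3K27me3. H3K27me3 and H3K36me3 were measured by ChIP-seq with a control library, 9 ChIP samples in all, and the peaks were deposited as 1 list per mark and genotype. All groups were plated on coats that contained laminin and matured with BDNF, GDNF, dibutyryl cyclic AMP and ascorbic acid, so laminin protein was supplied to every culture. Whether each KO line is a single clone, and whether replicate libraries came from separate differentiations, is not stated in the labels; p-values cover the spread among the deposited libraries, which may be technical.

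Integrins are cell surface receptors made of 1 alpha and 1 beta chain, and the pairing decides which matrix protein is bound: collagens, laminins, or proteins with an RGD motif such as fibronectin. Laminins are secreted heterotrimers of an alpha, a beta and a gamma chain that build the basement membrane. Neurons and their progenitors use laminin-binding integrins in neurite outgrowth and attachment, whereas collagen-binding and several RGD-binding chains are better known from fibroblasts, muscle and vessel walls. H3K27me3 is laid down by the Polycomb complex PRC2 and is found at silent developmental genes, and H3K36me3 marks the bodies of transcribed genes.

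Library totals were 18.7, 21.6 and 31.5 M counts for KO1, 23.3 and 21.5 M for KO2 and 23.9, 27.8 and 17.4 M for WT. KDM6A RNA lay between 25.9 and 40.8 CPM (counts per 1e+06 counts, TMM-scaled) in the KO libraries and between 35.18 and 36.03 CPM in WT, and a gene-level count does not show an edit that leaves RNA in place. KO1 replicate 2 and both KO2 libraries stood apart through collagen RNA: COL1A1, chosen after its values were seen, was at 27540 CPM in KO1 replicate 2 and at 9226 and 14460 CPM in KO2, against 278 and 258 CPM in the other KO1 libraries and 7.65 to 387 CPM in WT. These are called the 3 high-collagen libraries here, and the main counts are also given without them. The 12 mesenchymal and fibroblast markers summed to 24470 to 63330 CPM in the 3 high-collagen libraries, to 903 and 1111 CPM in the other KO libraries and to 72.0 to 1630 CPM in WT. All 12 had a positive fold change. COL1A1, by which the 3 libraries were picked, is among the 12, as are COL1A2 and COL3A1, so this sum is no separate evidence on them. The 10 neuronal markers were present in every library, at a sum of 743 to 2674 CPM in the 3 high-collagen libraries, 3769 and 4544 CPM in the other KO libraries and 3382 to 5143 CPM in WT. The 8 neural progenitor markers summed to 3323 to 5879 CPM in the 3 high-collagen libraries and 3900 to 4442 CPM in WT. The other KO libraries were at 4121 and 4624 CPM. In the 3 high-collagen libraries all but VIM of these were below WT, PAX6 at 11.6 to 122 CPM against 325 to 424.5 CPM. Astrocyte markers summed to 66.5 to 438.5 CPM in KO and 141 to 297 CPM in WT. Epithelial markers summed to 23.6 to 530 CPM in KO and 11.9 to 21.3 CPM in WT, and endothelial markers to 7.99 to 115 CPM in KO and 6.89 to 7.30 CPM in WT. Of the endothelial markers, KDR was at 1.91 to 42.5 CPM in KO and 0.811 to 1.66 CPM in WT. ERG was at 22.5 to 68.9 CPM in the 3 high-collagen libraries and at most 0.644 CPM in WT. For CDH5, TEK and CLDN5 the groups overlapped, and PECAM1 was at or below 0.337 CPM in every library. Blood and microglia markers stayed at or below 3.67 CPM, with SPI1 at or near 0. The part of these markers in the results on integrins and laminins was not tested, and in bulk RNA fewer cells of a type and less RNA per cell cannot be told apart.

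In KO neurons, RNA of the collagen-binding integrin chains alpha1 and alpha11, the RGD-binding chains alpha5 and alpha8, the shared chain beta1 and the laminin chains alpha4, beta1, beta2 and gamma1 was higher on average than in WT. For each of these genes the highest values were in the 3 high-collagen libraries. The 38 genes together held 1640, 4986 and 1161 CPM in KO1 replicates 1 to 3 and 4491 and 3551 CPM in KO2, against 1321, 868 and 1343 CPM in WT. The 3 high-collagen libraries were far above WT, while KO1 replicate 3 lay inside the WT range. The quasi-likelihood test of edgeR at a false discovery rate (FDR) of 0.05 called 0 of the 31 genes that passed its filter on low counts, and 0.0% of all 18614 genes tested, where the lowest FDR was 0.0941. At an unadjusted edgeR p under 0.05, 17 of the 31 genes tested were higher in KO, against 11.5% of all genes tested, and 2 were lower, against 6.45%. The authors used the Wald test of DESeq2 for their deposited table. It called 13 of the 29 genes with an adjusted p higher, at under 0.05, against 4.83% of all genes with one, and 0 lower, against 1.16%. Later RNA shares of all genes also cover only genes that the fit tested, while counts out of the 38 include untested ones. The 13 were ITGA1, ITGA5, ITGA8, ITGA9, ITGA11, ITGB1, ITGB3, ITGB5, LAMA4, LAMB1, LAMB2, LAMB3 and LAMC1, while 9 of the 38 had no DESeq2 adjusted p. The median log2 fold change was 1.75 over the 31 genes that passed the filter and -0.01 over all genes tested. Without the 3 high-collagen libraries, DESeq2 called 0 of the 38 higher, against 0.877% of all genes, and 0 lower, against 0.55%. The median over the same list was then 0.14, against 0.00 over all genes. CPM values are not divided by transcript length, so levels are compared between libraries and not between genes.

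**Figure D1:**
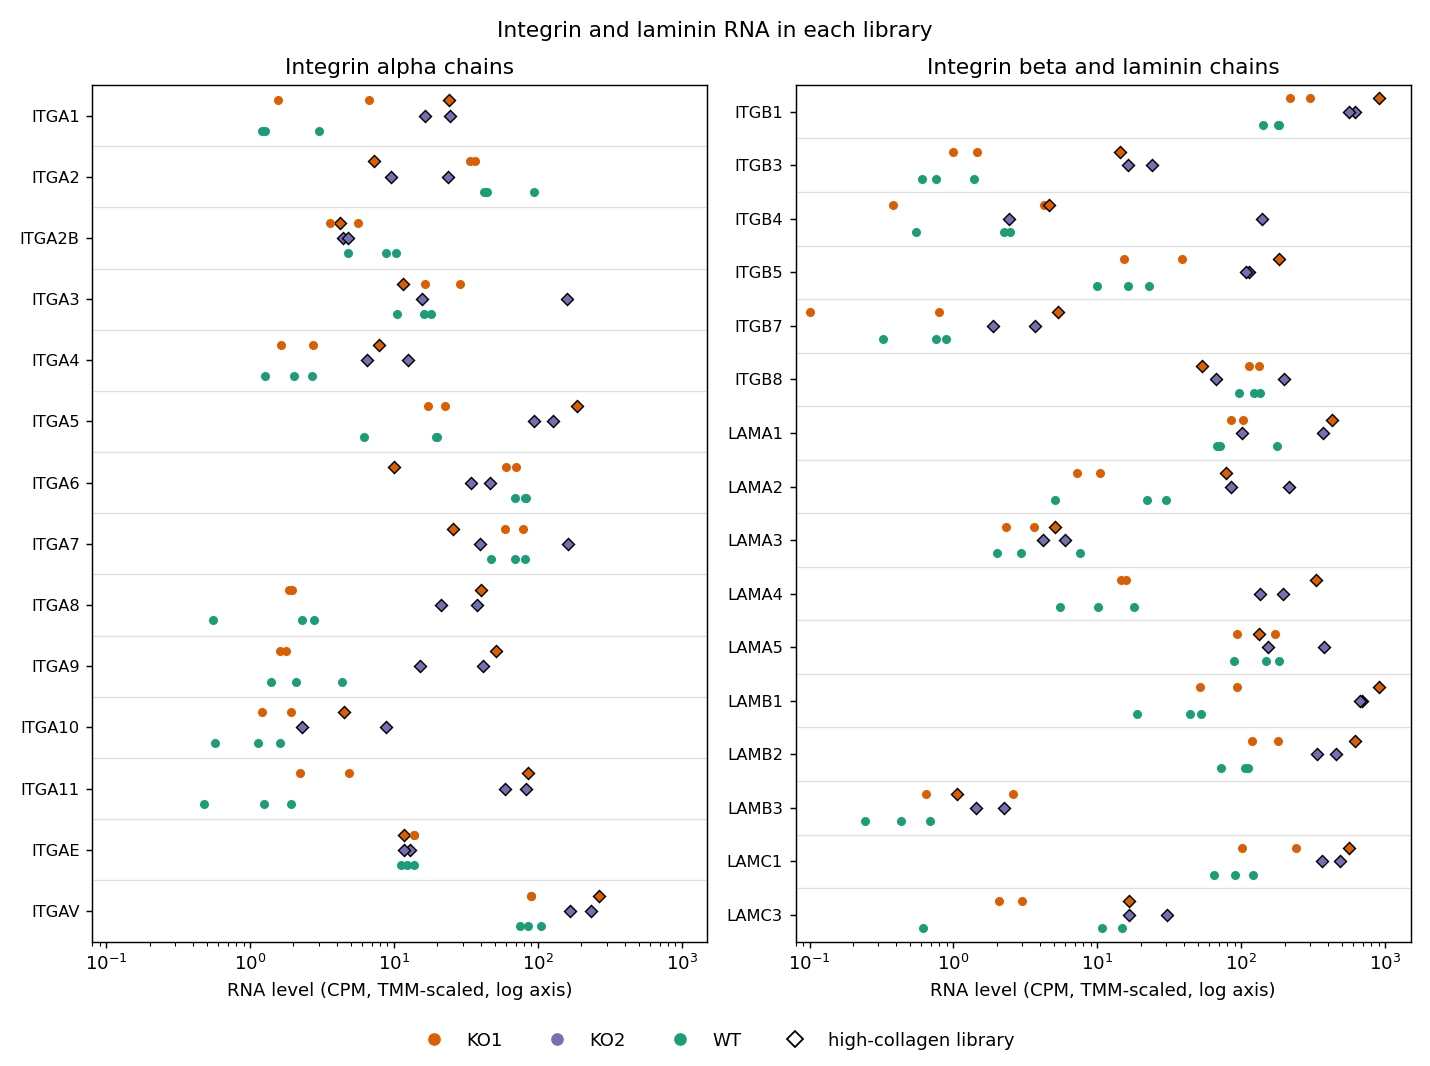
RNA level of 30 of the 31 integrin and laminin genes that passed the filter, in CPM on a log axis, with each point 1 library, KO1 and KO2 drawn above WT for each gene, and diamonds for the 3 high-collagen libraries. For ITGA11, ITGB1 and LAMB2 every KO point lies to the right of every WT point, and for ITGA2 every KO point lies to the left.

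An H3K27me3 peak lay at the start of 10 of the 38 genes in the KO peak list and of 11 in the WT list, against 15.9% and 15.4% of 18806 protein-coding genes, counting any peak within 2 kb of a start site. For 9 genes a peak was in both lists: ITGA4, ITGA8, ITGA9, ITGA11, ITGB2, ITGB3, ITGB4, LAMB1 and LAMC3, against 13.7% of protein-coding genes. ITGA3 had a peak only in the KO list, against 2.25%, and ITGA5 and ITGB5 only in the WT list, against 1.73%. No peak lay within 2 kb of the start sites or ends read for the other 26 genes. Of these, ITGA7, ITGAM, ITGB7 and LAMA3 had a peak elsewhere in or near the gene in both lists, and ITGA2B in the KO list. LAMA3 was read at 1 start site, chr18:23873020, inside a gene that begins at 23689453. Its nearest peaks lay 182223 bp (KO list) and 182259 bp (WT list) from that site, so peaks toward its 5′ end were not counted. Each list was made from 1 treatment and 1 control alignment, the KO lists under labels of both KO lines, so no difference between the lists has a replicate check. The KO list came from 37.6 M tags against 45.7 M in its control and held 10950 peaks, and the WT list from 22.4 M tags against 23 M and held 10340 peaks. Fold enrichments are the authors' values and are compared only within a list. For 12 genes, ITGA3, ITGA9, ITGB2, ITGB3, ITGB4 and LAMC3 among them, the RefSeq promoter table had no entry and either end of the gene was used as the start.

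The promoters of ITGA5 and ITGB5, the genes with a peak only in the WT list, are shown beside those of LAMB1 and ITGA11, the genes with a peak over the start in both lists that DESeq2 called in each of the 8 fits that left out 1 library. Each is the RefSeq window from 250 bases before to 50 bases after the start site, on the minus strand of GRCh38.p14, written 5′ to 3′ with each CpG dinucleotide in capitals. They are ITGA5 at chr12:54419217-54419516, ITGB5 at chr3:124887316-124887615 (1 of its 3 start sites), LAMB1 at chr7:108003112-108003411 and ITGA11 at chr15:68432114-68432413.
ITGA5: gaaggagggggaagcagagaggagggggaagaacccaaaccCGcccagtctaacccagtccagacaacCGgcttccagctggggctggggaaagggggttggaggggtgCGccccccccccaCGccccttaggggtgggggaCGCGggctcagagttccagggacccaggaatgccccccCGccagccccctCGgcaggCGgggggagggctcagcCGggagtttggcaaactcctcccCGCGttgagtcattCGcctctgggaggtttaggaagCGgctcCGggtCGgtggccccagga
ITGB5: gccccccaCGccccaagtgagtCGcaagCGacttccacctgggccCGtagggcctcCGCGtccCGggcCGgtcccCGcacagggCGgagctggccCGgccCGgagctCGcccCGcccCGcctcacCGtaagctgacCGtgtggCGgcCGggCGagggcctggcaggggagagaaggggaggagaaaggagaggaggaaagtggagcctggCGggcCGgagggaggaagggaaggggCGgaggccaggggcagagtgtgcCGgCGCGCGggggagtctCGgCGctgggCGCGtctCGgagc
LAMB1: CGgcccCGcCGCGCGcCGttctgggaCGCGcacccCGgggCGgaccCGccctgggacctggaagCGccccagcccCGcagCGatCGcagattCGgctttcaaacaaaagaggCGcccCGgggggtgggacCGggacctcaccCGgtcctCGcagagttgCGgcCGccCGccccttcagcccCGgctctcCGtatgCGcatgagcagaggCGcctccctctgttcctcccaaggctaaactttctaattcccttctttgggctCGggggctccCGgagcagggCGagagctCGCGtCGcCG
ITGA11: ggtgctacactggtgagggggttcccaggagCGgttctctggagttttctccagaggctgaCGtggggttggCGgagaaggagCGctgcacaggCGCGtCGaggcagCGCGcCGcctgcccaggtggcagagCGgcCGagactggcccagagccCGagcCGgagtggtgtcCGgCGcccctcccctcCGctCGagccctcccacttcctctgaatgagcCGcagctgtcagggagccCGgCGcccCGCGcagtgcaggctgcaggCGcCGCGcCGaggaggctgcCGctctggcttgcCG
These windows hold 16 CpGs in ITGA5, 32 in ITGB5, 35 in LAMB1 and 29 in ITGA11, against a median of 21 over 21260 promoter windows of 15059 protein-coding genes. The 33 windows found for 26 of the 38 genes had a median of 13 CpGs. Windows of genes with an H3K27me3 promoter peak in either list had a median of 28 CpGs (8 windows of 6 genes, 11 to 35). Those of genes without one had a median of 10 (25 windows of 20 genes, 0 to 41). The AP-1 letters TGANTCA, read on both strands, were in 9.09% of the integrin and laminin windows and 6.19% of all windows, the TEAD letters GGAATG in 12.1% and 12.1%, and the SP letters GGGCGG in 57.6% and 56.8%. The ITGA5 window held 1 match to each. A match describes the letters only.

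At ITGA5, whose product pairs with beta1 as the main fibronectin receptor, the WT list held 3 peaks. The longest spanned chr12:54417648-54419815, 2168 bp over the start site and the whole window printed above, with a fold of 8.07, higher than 77.7% of peaks in that list. The nearest peak of the KO list lay 6476 bp from the start. At ITGB5, the beta chain that joins alphaV in a vitronectin receptor, the WT peak spanned chr3:124883941-124888245, 4305 bp over the window printed above with a fold of 14.1, longer than 94.2% of the WT peaks. The nearest KO peak was 300557 bp away. The RNA of ITGA5 was at 22.5, 188 and 17.2 CPM in KO1 and 93.2 and 126 CPM in KO2, against 20.0, 6.17 and 19.7 CPM in WT. ITGB5 was at 38.8, 184 and 15.4 CPM in KO1 and 114 and 107 CPM in KO2, against 9.97, 16.3 and 22.7 CPM in WT. For both genes the 3 high-collagen libraries lay above WT and KO1 replicate 3 lay within it. DESeq2 called both higher, with log2 fold changes of 2.58 ± 0.77 (SE) for ITGA5 (adjusted p = 0.0223) and 2.51 ± 0.69 for ITGB5 (adjusted p = 0.0115). Without the 3 high-collagen libraries these were 0.39 (DESeq2 adjusted p = 0.977) and 0.73 (adjusted p = 0.734).

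A peak in both lists also stood at genes that DESeq2 called. At LAMB1, which encodes the laminin beta1 chain, the KO peak spanned chr7:108000784-108005219 (4436 bp, fold 8.66) and the WT peak chr7:108000970-108005274 (4305 bp, fold 10.8), with 4250 bp shared. ITGA11 had 2 KO peaks of 3828 bp in all and 1 WT peak of 3844 bp, with 3598 bp shared, and ITGA8 had 1 peak in each list, of 2501 bp in KO and 2066 bp in WT. The longest coverage was at ITGB2, the leukocyte beta chain, with 8512 bp in the KO list and 8118 bp in the WT list; its RNA reached at most 4 counts in any library. The KO-only peak at ITGA3 was short, 477 bp with a fold of 3.54 and a -log10 q of 4.78, and was not kept at a -log10 q of at least 5. Of the 12 genes with a promoter peak in either list, DESeq2 called 7 higher in KO, against 14.1% of protein-coding genes with such a peak. Of the 26 without, it called 6, against 4.05% of protein-coding genes without one.

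**Figure D2:**
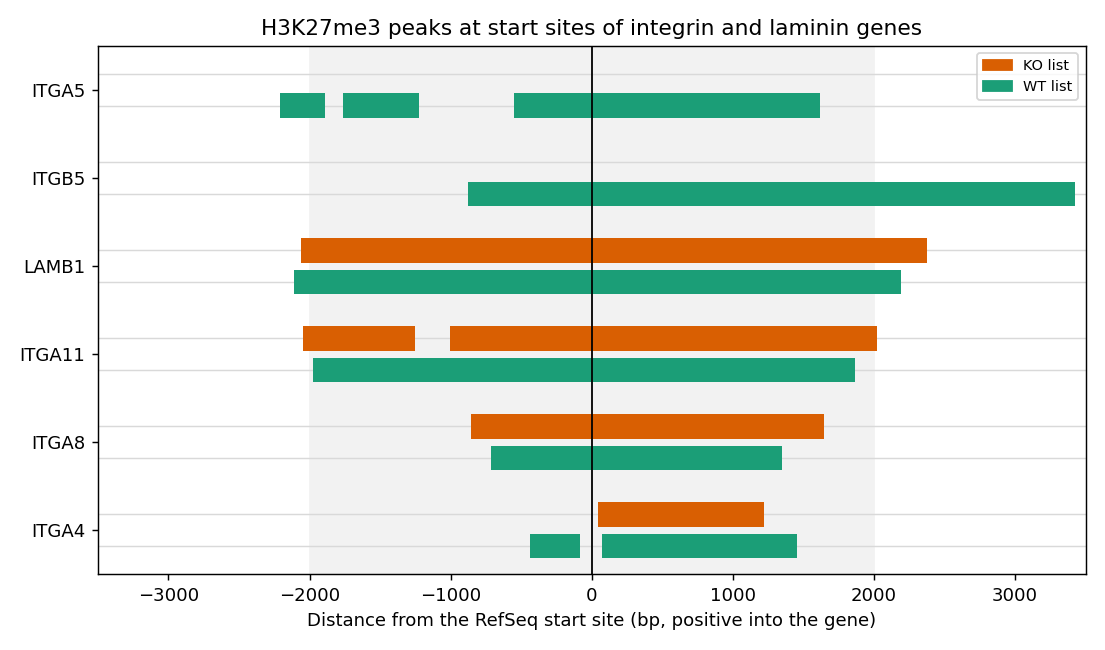
H3K27me3 peaks of the KO list (upper bars) and the WT list (lower bars) at 6 integrin and laminin genes with a RefSeq start site, as distance from the start in bp with the 2 kb window shaded. ITGA5 and ITGB5 have bars from the WT list only, and LAMB1, ITGA11, ITGA8 and ITGA4 have bars from both; for ITGB5 the start site at the peak is the one shown.

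H3K36me3 peaks lay in the body of 4 of the 38 genes in the KO list, against 19.5% of protein-coding genes, and of 9 in the WT list, against 35.7%. ITGB1, ITGB8, LAMA1 and LAMA5 were in both lists, which is 4 of 4 in KO and 4 of 9 in WT. LAMA5 had 1 KO peak of 349 bp and 14 WT peaks of 8664 bp in all, and ITGB1 had 3 KO peaks of 818 bp in all and 2 WT peaks of 705 bp. The KO list held 8937 peaks in all and the WT list 30144, so fewer KO peaks at these genes go with a shorter list.

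Among the collagen receptors, the alpha1 and alpha11 chains were called higher in KO and the alpha2 chain lay lower in every KO library. ITGA11, a collagen receptor chain known from fibroblasts, was at 4.85, 85.4 and 2.23 CPM in KO1 and 83.2 and 59.3 CPM in KO2, against 1.256, 0.480 and 1.93 CPM in WT. All 5 KO libraries were above all 3 WT libraries, with KO1 replicate 3 just above the highest WT library. The log2 fold change was 5.30 ± 1.01 (DESeq2 adjusted p = 5.75e-05), and without the 3 high-collagen libraries 1.55 ± 0.68 (adjusted p = 0.379). ITGA1, whose chain binds basement membrane collagen, was at 6.72, 24.2 and 1.56 CPM in KO1 and 24.5 and 16.3 CPM in KO2, against 1.22, 1.27 and 3.00 CPM in WT. KO1 replicate 3 overlapped WT and the other KO libraries were above it. Its log2 fold change was 3.03 ± 0.77 (DESeq2 adjusted p = 0.00477), or 1.18 ± 0.72 without the 3 high-collagen libraries (adjusted p = 0.708).

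ITGA2, which encodes the collagen receptor chain of platelets and epithelia and can also bind laminin, was at 36.4, 7.30 and 33.6 CPM in KO1 and 9.54 and 23.6 CPM in KO2, against 93.3, 43.9 and 42.3 CPM in WT. Every KO library was below every WT library, as for 6.16% of all genes tested, but WT replicate 1 stood well above the other WT libraries. The log2 fold change was -1.43 ± 0.58 and did not pass DESeq2 (adjusted p = 0.122) or edgeR (FDR = 0.259). ITGA1 and ITGA2 are neighbours on GRCh38.p14, at chr5:52787916-52959209 and chr5:52989352-53094779, and the H3K27me3 peak nearest to the start lay 691791 bp from ITGA1 and 490355 bp from ITGA2 in the KO list. ITGA10, a chain of cartilage cells, was at 1.21, 4.49 and 1.94 CPM in KO1 and 8.73 and 2.28 CPM in KO2, against 0.567, 1.61 and 1.13 CPM in WT, with a DESeq2 adjusted p of 0.0991. KO1 replicate 1 lay inside the WT range.

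The laminin-binding alpha chains showed no call with all KO libraries pooled, where ITGA3 had no DESeq2 adjusted p (log2 fold change 1.64 ± 0.83, edgeR FDR = 0.362). ITGA6, the alpha chain of the main laminin receptors of neural progenitors and epithelia, was at 60.1, 10.0 and 70.7 CPM in KO1 and 46.4 and 34.1 CPM in KO2, against 83.2, 68.8 and 80.8 CPM in WT. KO1 replicate 3 reached the WT range and the 3 high-collagen libraries were lowest, at a log2 fold change of -0.81 ± 0.52 (DESeq2 adjusted p = 0.371). ITGA7, the laminin receptor chain of muscle, was at 79.3, 25.5 and 58.6 CPM in KO1 and 163 and 39.8 CPM in KO2, against 80.9, 47.0 and 69.0 CPM in WT, and its groups overlapped on both sides (0.16 ± 0.56, adjusted p = 0.896). ITGA3, whose chain pairs with beta1 in a laminin receptor of epithelia and neurons, was at 28.6, 11.6 and 16.3 CPM in KO1 and 159.6 and 15.8 CPM in KO2, against 18.04, 16.3 and 10.5 CPM in WT. KO2 replicate 1 stood far above all other libraries.

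Of the chains that recognise RGD motifs, ITGA8 was called higher in KO as well as ITGA5. ITGA8, whose chain with beta1 binds nephronectin and fibronectin, was at 1.87, 39.9 and 1.97 CPM in KO1 and 21.3 and 37.6 CPM in KO2, against 2.31, 0.549 and 2.79 CPM in WT. The 3 high-collagen libraries were above WT, and KO1 replicates 1 and 3 lay inside the WT range. The log2 fold change was 3.48 ± 0.98 (DESeq2 adjusted p = 0.0139), or 0.04 ± 0.71 without those 3 libraries. ITGAV, the alpha chain shared by the vitronectin and TGF-beta-activating receptors, was at 90.2, 265 and 89.3 CPM in KO1 and 235 and 168 CPM in KO2, against 85.6, 74.8 and 105 CPM in WT (DESeq2 adjusted p = 0.173). The 3 high-collagen libraries were above WT and the other KO libraries inside its range. ITGA2B, the platelet fibrinogen receptor chain, was at 5.61, 4.21 and 3.58 CPM in KO1 and 4.43 and 4.81 CPM in KO2, against 10.3, 4.80 and 8.80 CPM in WT, with WT replicate 2 among the KO libraries (log2 fold change -0.80 ± 0.30, adjusted p = 0.0924).

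The alpha4 and alpha9 chains, which bind VCAM1, fibronectin and tenascin, both had H3K27me3 peaks in both lists. ITGA9 was at 1.77, 50.8 and 1.62 CPM in KO1 and 15.1 and 41.7 CPM in KO2, against 2.07, 1.41 and 4.34 CPM in WT. Its log2 fold change was 3.13 ± 1.01 (DESeq2 adjusted p = 0.0397), and without the 3 high-collagen libraries it turned to -0.61 ± 0.59 (adjusted p = 0.937). ITGA4 was at 2.73, 7.86 and 1.64 CPM in KO1 and 12.5 and 6.54 CPM in KO2, against 2.03, 1.27 and 2.68 CPM in WT, with an adjusted p of 0.0968. The 3 high-collagen libraries were above WT for both genes and KO1 replicate 3 overlapped it, as did KO1 replicate 1 for ITGA9.

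ITGB1, the beta chain shared by the collagen, laminin and most fibronectin receptors, was at 301, 908 and 218 CPM in KO1 and 616 and 562 CPM in KO2, against 180.5, 141 and 183 CPM in WT. All KO libraries were above all WT libraries, as for 6.29% of all genes tested. The mean was 521 ± 274 CPM in KO and 168 ± 23.2 CPM in WT (SD, n = 5 and 3), a log2 fold change of 1.65 ± 0.46 (DESeq2 adjusted p = 0.0133). Without the 3 high-collagen libraries it was 0.63 ± 0.21, with a DESeq2 adjusted p of 0.127. ITGB3, the beta chain of the platelet and vitronectin receptors, was at 1.47, 14.5 and 0.999 CPM in KO1 and 23.9 and 16.4 CPM in KO2, against 0.608, 0.754 and 1.39 CPM in WT. KO1 replicate 3 lay inside the WT range and the other 4 KO libraries above it, with a log2 fold change of 3.67 ± 0.92 (DESeq2 adjusted p = 0.00437), or 0.43 ± 0.65 without the 3 high-collagen libraries.

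The beta chains other than ITGB1, ITGB3 and ITGB5 were not called with all KO libraries pooled. Of these, ITGB2, ITGB4 and ITGB6 had no DESeq2 adjusted p, and ITGB4 was at a log2 fold change of 4.10 ± 1.61 (edgeR FDR = 0.304). ITGB8, which joins alphaV to activate TGF-beta and is known from radial glia and astrocytes, was at 113, 53.3 and 132 CPM in KO1 and 197 and 67.3 CPM in KO2, against 136, 97.2 and 123 CPM in WT, and the groups overlapped (log2 fold change -0.07 ± 0.43, DESeq2 adjusted p = 0.945). ITGB4, the partner of alpha6 in hemidesmosomes, was at 4.24, 4.60 and 0.382 CPM in KO1 and 139 and 2.43 CPM in KO2, against 2.47, 0.549 and 2.25 CPM in WT. The high value of KO2 replicate 1 came with the highest KRT8 and KRT18, epithelial keratins chosen after their values were seen. They were at 223 and 269.9 CPM there, against at most 37.8 and 22.6 CPM in the other KO libraries and 7.62 and 9.36 CPM in WT. The epithelial markers EPCAM and CLDN6 were also highest there, at 2.55 and 21.1 CPM, but KRT19 and CDH1 were not. KRT19 was at 13.6 CPM there and 17.8 CPM in KO2 replicate 2. CDH1 was at 0.448 CPM there and 2.02 CPM in KO1 replicate 2. The astrocyte markers GFAP (41.7 CPM), S100B (11.4 CPM) and SLC1A3 (380 CPM) were also highest there of all libraries, but AQP4 and ALDH1L1 were not. Whether epithelial cells or astrocytes account for the ITGB4 and ITGA3 values was not tested. Of the leukocyte chains, ITGAE had 13.7, 11.7 and 13.7 CPM in KO1 and 13.0 and 11.6 CPM in KO2, against 11.2, 13.9 and 12.2 CPM in WT. ITGB7 was at 0.101, 5.33 and 0.793 CPM in KO1 and 1.88 and 3.72 CPM in KO2, against 0.324, 0.891 and 0.751 CPM in WT (DESeq2 adjusted p = 0.236), with the 3 high-collagen libraries above WT. The genes ITGAD, ITGAL, ITGAM, ITGAX and ITGB2 had at most 4 counts in any library. ITGB6 and LAMB4 were also under the filter, at no more than 10 counts.

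Among the laminin alpha chains, LAMA4, the chain of vessel and mesenchymal basement membranes, was called higher in KO. It was at 15.8, 330.1 and 14.7 CPM in KO1 and 136 and 194 CPM in KO2, against 10.1, 5.49 and 18.1 CPM in WT. The 3 high-collagen libraries were above WT and the other KO libraries inside its range. The log2 fold change was 3.65 ± 0.92 (DESeq2 adjusted p = 0.00450), or 0.45 ± 0.46 without those 3 libraries. LAMA1, the alpha chain of the early embryonic basement membrane, was at 103, 428 and 84.8 CPM in KO1 and 102 and 372 CPM in KO2, against 71.7, 68.1 and 178 CPM in WT, and the groups overlapped (adjusted p = 0.344). LAMA2, the chain of muscle and Schwann cell laminins, was at 10.5, 79.0 and 7.17 CPM in KO1 and 216 and 85.5 CPM in KO2, against 22.2, 5.04 and 29.8 CPM in WT. The 3 high-collagen libraries were above WT and the other KO libraries inside its range. The log2 fold change was 2.08 ± 0.97 (DESeq2 adjusted p = 0.191) and turned to -1.10 ± 0.88 without those 3 libraries (adjusted p = 0.880). Nor were LAMA3, of epithelial laminin, and LAMA5, of most mature basement membranes, called, at log2 fold changes of 0.03 ± 0.50 and 0.42 ± 0.47 (DESeq2 adjusted p = 0.984 and 0.629).

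The beta and gamma chains that complete the common laminins were called higher in KO. LAMB1 was at 93.2, 908 and 52.1 CPM in KO1 and 696 and 670.3 CPM in KO2, against 44.2, 18.9 and 52.6 CPM in WT. KO1 replicate 3 lay just inside the WT range and the other KO libraries above it. The mean was 484 ± 387 CPM in KO and 38.6 ± 17.5 CPM in WT (SD, n = 5 and 3), a log2 fold change of 3.68 ± 0.84 (DESeq2 adjusted p = 0.00123), or 0.92 ± 0.43 without the 3 high-collagen libraries (adjusted p = 0.452). LAMB2, the beta chain of synaptic and kidney laminins, was at 179, 618 and 119 CPM in KO1 and 454 and 336 CPM in KO2, against 106, 72.7 and 112 CPM in WT. Every KO library was above every WT library, and the log2 fold change was 1.84 ± 0.53 (adjusted p = 0.0156), or 0.62 ± 0.27 without the 3 high-collagen libraries (adjusted p = 0.355).

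LAMC1, the gamma chain of most laminins, was at 239.9, 560.1 and 101 CPM in KO1 and 485 and 366 CPM in KO2, against 121, 64.6 and 90.2 CPM in WT. KO1 replicate 3 lay inside the WT range and the other KO libraries above it. The log2 fold change was 1.95 ± 0.52 (DESeq2 adjusted p = 0.00887), or 0.89 ± 0.39 without the 3 high-collagen libraries (adjusted p = 0.379). LAMB3, a beta chain of skin laminin, was scarce, at 2.58, 1.07 and 0.646 CPM in KO1 and 2.24 and 1.44 CPM in KO2, against 0.243, 0.686 and 0.429 CPM in WT. KO1 replicate 3 overlapped WT. Its log2 fold change was 1.80 with all libraries (± 0.59, adjusted p = 0.0413) and 1.80 without the 3 high-collagen libraries (± 0.87, adjusted p = 0.503), unlike the other called genes, whose fold changes were smaller there. LAMC3, a chain of retina and brain surface, was at 2.98, 16.5 and 2.09 CPM in KO1 and 30.5 and 16.5 CPM in KO2, against 10.8, 0.617 and 14.9 CPM in WT. For LAMC3 too the 3 high-collagen libraries were above WT and the other KO libraries inside its range. Its log2 fold change was 0.67 ± 0.98 (DESeq2 adjusted p = 0.727) and turned to -1.78 ± 1.33 without those 3 libraries (adjusted p = 0.850).

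**Figure D3:**
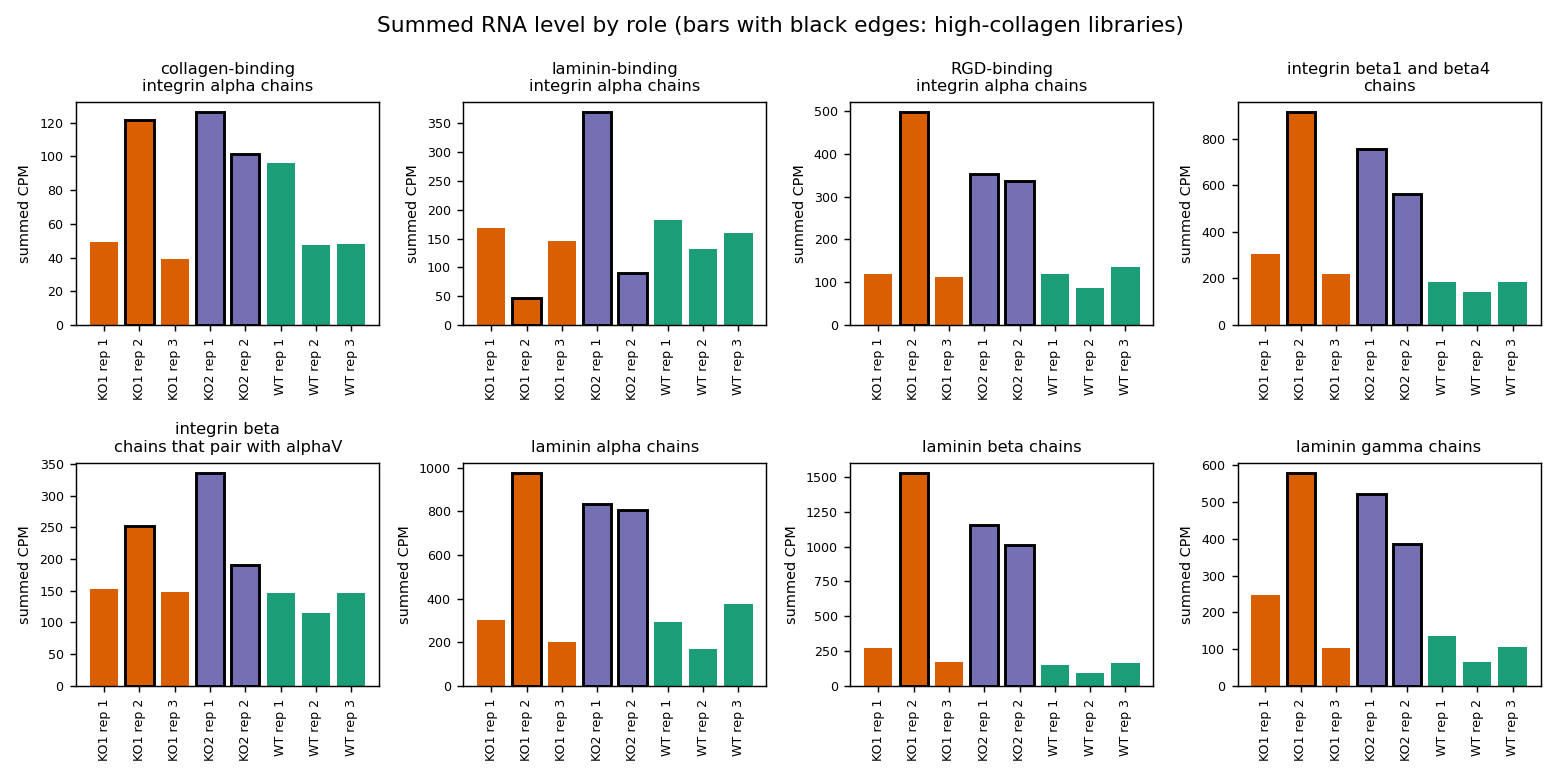
Summed RNA level in CPM for the integrin and laminin genes of each role, with 1 bar per library in the order KO1, KO2, WT and black edges on the 3 high-collagen libraries. Laminin beta chains sum to 274, 1527 and 172 CPM in KO1 and 1152 and 1008 CPM in KO2, against 92.5 to 165 CPM in WT; laminin-binding alpha chains show no such order.

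Set apart by line, the 2 KO lines share the WT libraries as their control, and their values are given side by side. In KO1, DESeq2 called 0 of the 38 genes higher, against 0.646% of all genes, and 0 lower, against 0.201%; edgeR called none at FDR 0.05, with 11 higher and 1 lower at an unadjusted p under 0.05, against 5.62% and 2.44% of all genes. In KO2, DESeq2 called 6 higher, against 3.27%, and 0 lower, against 0.975%: ITGA1, ITGA3, ITGA4, ITGB4, ITGB5 and LAMC1. There edgeR again called none at FDR 0.05, with 19 higher and 1 lower at an unadjusted p under 0.05, against 10.6% and 7.78%. Of the 13 genes called with the lines pooled, 7 had no DESeq2 adjusted p in KO2. The same 7 had none in KO1: ITGA5, ITGA8, ITGA9, ITGA11, ITGB3, LAMA4 and LAMB1. For these genes the lack of a DESeq2 call by line is not a negative result. The KO2 calls of ITGA3 (log2 fold change 2.56 ± 0.82, adjusted p = 0.0462) and ITGB4 (5.33 ± 1.33, adjusted p = 0.00500) rest on KO2 replicate 1, since KO2 replicate 2 was at 15.8 CPM for ITGA3 and 2.43 CPM for ITGB4, inside the WT range for both genes. When KO1 replicate 2 was left out of the 3-group fit, edgeR called 16 of the 38 genes in KO2 at FDR 0.05, 15 higher, against 10.4% of all genes, and 1 lower, against 6.25%. The lower gene was ITGA6, at -0.94 (FDR = 0.0149). Both KO2 libraries are high-collagen libraries, and this fit left none in KO1. KO2 and the high-collagen state therefore cannot be told apart in these calls. Between the lines edgeR called none at FDR 0.05, and ITGA3 and ITGB4 had an unadjusted p under 0.05.

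With 1 library left out, DESeq2 called 16, 10 and 20 of the 38 genes without KO1 replicates 1 to 3, against 8.9%, 4.05% and 13.7% of all genes. It called 9 and 7 without KO2 replicates 1 and 2, against 3.8% and 3.09%, and 5, 3 and 7 without WT replicates 1 to 3, against 3.08%, 2.44% and 2.54%. The DESeq2 calls of 2 genes held in each of the 8 fits that left out 1 library: ITGA11, with an adjusted p of at most 0.00631, and LAMB1, at most 0.0355. LAMA4 lost its call without WT replicate 2, and ITGA1, ITGB3 and ITGB5 lost theirs without WT replicate 1 or WT replicate 2. LAMC1 was not called without WT replicate 2 or 3, and ITGA8 not without WT replicate 1, WT replicate 2 or KO2 replicate 2. ITGB1 lost its call without any WT library or without KO2 replicate 2, and LAMB2 without any WT library or either KO2 library. ITGA5 and ITGA9 were called in 2 of the 8 fits, those without KO1 replicate 1 or 3, and LAMB3 in 1, that without KO1 replicate 3. With KO1 replicates 1 and 3 alone against WT, 4 genes were higher at an unadjusted edgeR p under 0.05, against 4.47% of all genes: ITGA11, ITGB1, LAMB2 and LAMB3. None was lower, against 3.82%.

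**Figure D4:**
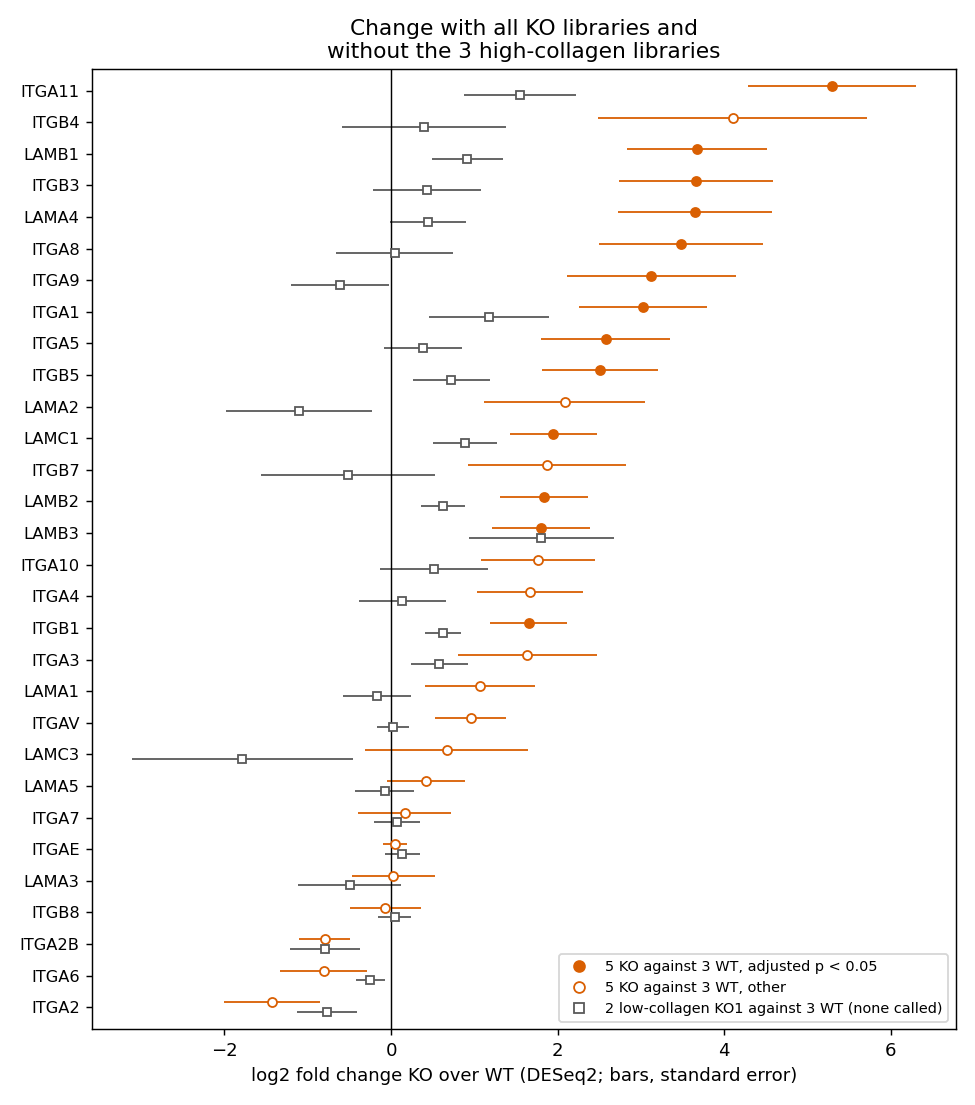
DESeq2 log2 fold change of KO over WT, with standard errors, for 30 of the 31 genes that passed the filter, ordered by the value with all 5 KO libraries (circles, filled where called) and beside it the value without the 3 high-collagen libraries (squares). The squares of most called genes lie closer to 0 than their circles, ITGA9 lies below 0, and LAMB3 stays at 1.80.

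Genes that act with integrins were read from lists of adaptors, other ligands, basement membrane partners and other matrix receptors. Of 22 integrin adaptor and signalling genes, DESeq2 called 8 higher in KO, against 4.83% of all genes, and 0 lower, against 1.16%. The 21 tested by edgeR had a median log2 fold change of 0.80, against -0.01 over all genes. Without the 3 high-collagen libraries 4 of them were called, against 0.877% of all genes: TLN1, VCL, LIMS2 and TNS3. TLN1, which encodes talin, the activator of integrin beta tails, was at 162, 544 and 120.2 CPM in KO1 and 407 and 385 CPM in KO2, against 98.1, 84.5 and 85.7 CPM in WT. VCL, which encodes vinculin, was at 224, 360.0 and 94.1 CPM in KO1 and 456 and 299.9 CPM in KO2, against 75.5, 62.1 and 70.5 CPM in WT. For both genes every KO library was above every WT library, and without the 3 high-collagen libraries the log2 fold changes were 0.65 for TLN1 (DESeq2 adjusted p = 0.0482) and 1.20 for VCL (adjusted p = 0.0381). LIMS2, of the complex that binds integrin-linked kinase, and TNS3, a tensin of focal adhesions, had log2 fold changes of 4.91 and 3.13 with all libraries and 2.62 and 0.95 without those 3.

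Of 15 other integrin ligands, DESeq2 called 6 higher, against 4.83% of all genes, and 0 lower, against 1.16%, at a median log2 fold change of 1.37. Without the 3 high-collagen libraries the median was 0.29 and 1 gene was called, against 0.877%: SPP1, which encodes osteopontin (1.77, DESeq2 adjusted p = 0.0162, against 0.123 with all libraries). THBS1, which encodes the matrix protein thrombospondin, was at 84.8, 1863 and 47.2 CPM in KO1 and 889 and 594 CPM in KO2, against 11.6, 3.70 and 17.0 CPM in WT, and the groups did not overlap. Its log2 fold change was 6.04 ± 0.99, or 2.62 without the 3 high-collagen libraries (DESeq2 adjusted p = 0.0611). The matricellular genes THBS2, CCN2 and CCN1 were called at log2 fold changes of 6.31, 4.67 and 3.19. Without those 3 libraries none of the 3 was called, at 0.95 for THBS2 (DESeq2 adjusted p = 0.385), 2.44 for CCN2 (adjusted p = 0.598) and 1.64 for CCN1 (adjusted p = 0.688). Of 9 basement membrane partners 1 was called higher, against 4.83% of all genes: NID2, which encodes the laminin-binding protein nidogen (5.21 ± 1.51, DESeq2 adjusted p = 0.0174, and -0.23 without the 3 high-collagen libraries). The related NID1 was at 2.35 ± 0.92 with an adjusted p of 0.105. Of 11 other matrix receptors 3 were called higher, SDC2, CD44 and DDR2, against 4.83% of all genes, and 2 without the 3 high-collagen libraries, against 0.877%. SDC2, a heparan sulfate co-receptor, was at 150.2, 526 and 79.7 CPM in KO1 and 476 and 297 CPM in KO2, against 46.6, 27.9 and 54.1 CPM in WT. All its KO libraries were above WT, and it was called also without the 3 high-collagen libraries (1.42, DESeq2 adjusted p = 0.00839), as was CD44, the hyaluronan receptor (2.09, adjusted p = 0.0157). DDR2, a collagen receptor tyrosine kinase of fibroblasts, was not (0.12, adjusted p = 0.996).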

How the data were processed

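RNA was measured by RNA-seq (8 libraries) and chromatin by ChIP-seq (9 samples). Per the submitters' processing notes, the tools were Salmon 1.1.0 and DESeq2 1.26.0 for RNA and Bowtie2 2.4.1 and MACS2 2.2.7.1 for ChIP, on GRCh38. The authors deposited estimated counts per gene symbol, without normalization, and a table of KO against WT with log2 fold changes, a Wald score and p-values. Narrow peaks were called by the authors at a q of 0.01, per the file headers; the deposited lists give the pileup signal, the fold over control and the -log10 q. Library totals of 17.4 to 31.5 M counts limit the precision of scarce genes.

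Counts were rounded and tested over all genes with edgeR 4.0.16 in R 4.3.3 (filterByExpr, TMM, quasi-likelihood F-test, Benjamini-Hochberg FDR of 0.05); both KO lines were pooled against WT, and a 3-group fit gave each line. DESeq2 1.42.0 was the alternative tool, and its fold changes lay within 0.001 of the deposited ones for 99.99% of 35365 genes. Standard errors after log2 fold changes are from DESeq2. The scripts were checked on simulated data. A promoter peak overlaps the 2 kb on either side of a RefSeq start site (GRCh38.p14) by at least 1 bp, or either gene end for 12 genes without a start site in the table.

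Values in every library were given for genes called by either tool, at an unadjusted edgeR p under 0.05, with a promoter peak in 1 list, or with the highest mean CPM of their role; of the related gene lists, at most 4 called genes each by lowest p were named, some by fold change alone. NID1, SPP1, LAMA2, LAMA3, LAMA5, LAMC3 and ITGA6 were added after their values were seen. The members and gene lists were chosen with earlier results of these data known. Values of 1 of the 38 genes are not reported here; it stays in the counts and sums.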

Additional observations from a re-analysis of the deposited data

Results flagged for a closer look

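Over the 5 KO libraries, 31 genes were tested for a library far from the others, where the gap of the extreme library is over 0.71 of the whole range; chance marks about 1 group in 20. KO2 replicate 1 stood far above the other KO libraries for ITGA3, at 159.6 CPM, for ITGB4, at 138.6 CPM, and for LAMA5, at 377.2 CPM. The gap was 0.885, 0.969 and 0.728 of the range. The next highest KO library was at 28.6 CPM for ITGA3, 4.60 CPM for ITGB4 and 171 CPM for LAMA5. The same library held the highest KRT8 and KRT18 of the 8 libraries, but not the highest KRT19 or CDH1. It also held the highest GFAP, S100B and SLC1A3, but not the highest AQP4 or ALDH1L1. The part of epithelial or astrocyte RNA in these values was not tested.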

How the results depend on the processing

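The edgeR count of genes called at FDR 0.05 in KO against WT was 0 under RLE scaling, without the filter, with a replicate block, as the mean of both lines, and without any 1 library or the 3 high-collagen libraries. DESeq2 called 13 (1243 of all genes) and, with each library left out, 3 to 20 (452 to 2870 of all genes, the 20 with the 2870; 16, 10 and 20 without KO1 replicates 1 to 3, 9 and 7 without KO2 replicates 1 and 2, and 5, 3 and 7 without WT replicates 1 to 3), and 0 (262) without the 3 high-collagen libraries. In KO2 against WT, DESeq2 called 6, and edgeR 0 to 16 over the libraries left out, the 16 without KO1 replicate 2, where 3228 of all genes were called. The 19 genes at an unadjusted edgeR p under 0.05 (17 higher, 2 lower; 3337 of all genes) became 6 with the replicate number as a block (2365), 11 to 21 with each library left out (1893 to 4925), and 4 without the 3 high-collagen libraries (1555), which leaves 2 KO1 libraries. The cause of these moves was not tested. Deviations of same-numbered libraries correlated at -0.32 to 0.27 and those of differently numbered ones at -0.27 to 0.34. Pairing by replicate number was thus not seen, but it is not excluded. With or without the block, edgeR called none of these genes at FDR 0.05. The counts of H3K27me3 promoters ran from 9 to 15 in the KO list and 11 to 15 in the WT list under stricter peaks, other windows, the whole gene and a longer overlap.

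Over 598 values for 26 named genes, 489 kept their direction and side of the threshold, 88 passed a threshold missed by edgeR and 21 reversed. Since edgeR called none with all libraries, a value counted as kept however small it became. An example is ITGA8, at 3.46 by edgeR and 0.05 without the 3 high-collagen libraries. Without the 3 high-collagen libraries ITGA9 turned to -0.61 by both tools, ITGB7 to -0.46 (DESeq2 -0.52), LAMA1 to -0.17 and ITGB8 to 0.05. ITGB8, at -0.08 by edgeR with all libraries, ran from -0.37 to 0.10 (DESeq2 0.11) with 1 library left out, and was 0.03 and 0.06 in the other leave-outs that turned it. ITGA7, at 0.16, was -0.07 with the block and ran from -0.36 (without KO2 replicate 1) to 0.38, with -0.04 (DESeq2 -0.03) without WT replicate 2. ITGAE, at 0.04, ran from -0.04 (DESeq2 -0.03) without WT replicate 1 to 0.12. RLE scaling moved the median log2 fold change of all genes from -0.005 to 0.009. ChIP lists had no replicate, and genes of a few CPM had least precision.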
